A study of Mus musculus with 4 samples.

Results

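The hair follicle spots were the regions of injured mouse Achilles tendon sections that held the most transcript of 7 follicle genes. Each spot with at least 1000 unique molecular identifiers (UMIs, each counted as 1 captured RNA molecule) was given a score, the percentage of its UMIs that came from Krt35, Krt71, Krt25, Krt28, Tchh, Gjb2 and Dlx3, and the 100 highest-scoring spots of each section were taken. That gave 400 spots of 10574 with enough UMIs, or 3.78%. Because measured levels of these 7 genes chose the spots, their levels are given as a description with no test. A spot is a small region that can hold several cells of different types, so the values below are those of follicle regions and not of single follicle cells.

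The tissue was the injury site of the Achilles tendon, taken 14 days after a 0.5 mm punch wound, placed roughly 2 mm up from where the tendon meets the heel, in male and female mice aged 12 weeks. The tested mice carried TrkA F592A, an allele of a receptor kinase that the compound 1NMPP1 can block, and had the treatment label 1NMPP1. The control mice carried TrkA WT and had the treatment label Control, so genotype and treatment label differed together and their effects cannot be told apart. Each group had 2 sections of 10 µm, called F592A 1, F592A 2, WT 1 and WT 2 here. The study pooled 4 mice per genotype and the labels do not tie a section to an animal, so every p-value below measures only the spread between sections, which may be technical.

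A hair follicle is a small organ of the skin that goes through cycles of growth, regression and rest. In the growth phase, dividing matrix cells at its base feed concentric layers: the hair shaft in the middle, built from hair keratins cross-linked to keratin-associated proteins, the inner root sheath that moulds it, and the outer root sheath, which is continuous with the epidermis. A cluster of dermal cells, the dermal papilla, signals to the matrix from below, and melanocytes of the bulb pass pigment to the shaft. In the mouse hind limb the follicles lie in the skin over the tendon.

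The 4 libraries held 43957617 and 37089208 UMIs in F592A 1 and F592A 2, against 42911141 and 30154873 in WT 1 and WT 2. The follicle spots together held 468875 and 844765 UMIs in the F592A sections, against 1052420 and 338272 in the WT sections. WT 2 had the shallowest follicle spots, with a median of 2472.5 UMIs per spot and 42 spots under 2000, whereas the other 3 sections had medians of 3874 to 8545 and at most 9 such spots. WT 2 also differed from the other sections in the genes of the Y chromosome on a list of 4, which summed to 363 and 304 CPM (counts scaled to a total of 1000000 UMIs) in the F592A follicle spots, against 252 and 2.96 CPM in the WT follicle spots. The F592A sections resembled each other more than any other pair did. They shared 24 array positions among their 100 follicle spots, against 0 to 9 for the other 5 pairs, and the chi-square of their follicle gene counts per degree of freedom was 1.98, against 4.01 to 7.05. All arrays use the same set of position barcodes, so a shared barcode is a shared position and not a shared cell.

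The score separated the chosen spots from the rest by a slope and not by a gap. The highest score was 2.24 and 2.04% in the F592A sections, against 1.53 and 2.79% in the WT sections. The median of the follicle spots was 0.636 and 0.591% in the F592A sections, against 0.570 and 0.445% in the WT sections. The lowest follicle spot had 0.373 and 0.391% in the F592A sections, against 0.381 and 0.304% in the WT sections, and the next spot outside had 0.372 and 0.389% in the F592A sections, against 0.375 and 0.302% in the WT sections. A score of 1% or more was reached by 48 spots in all, and 384 of the 400 follicle spots held UMIs of at least 3 of the 7 genes.

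**Figure D1:**
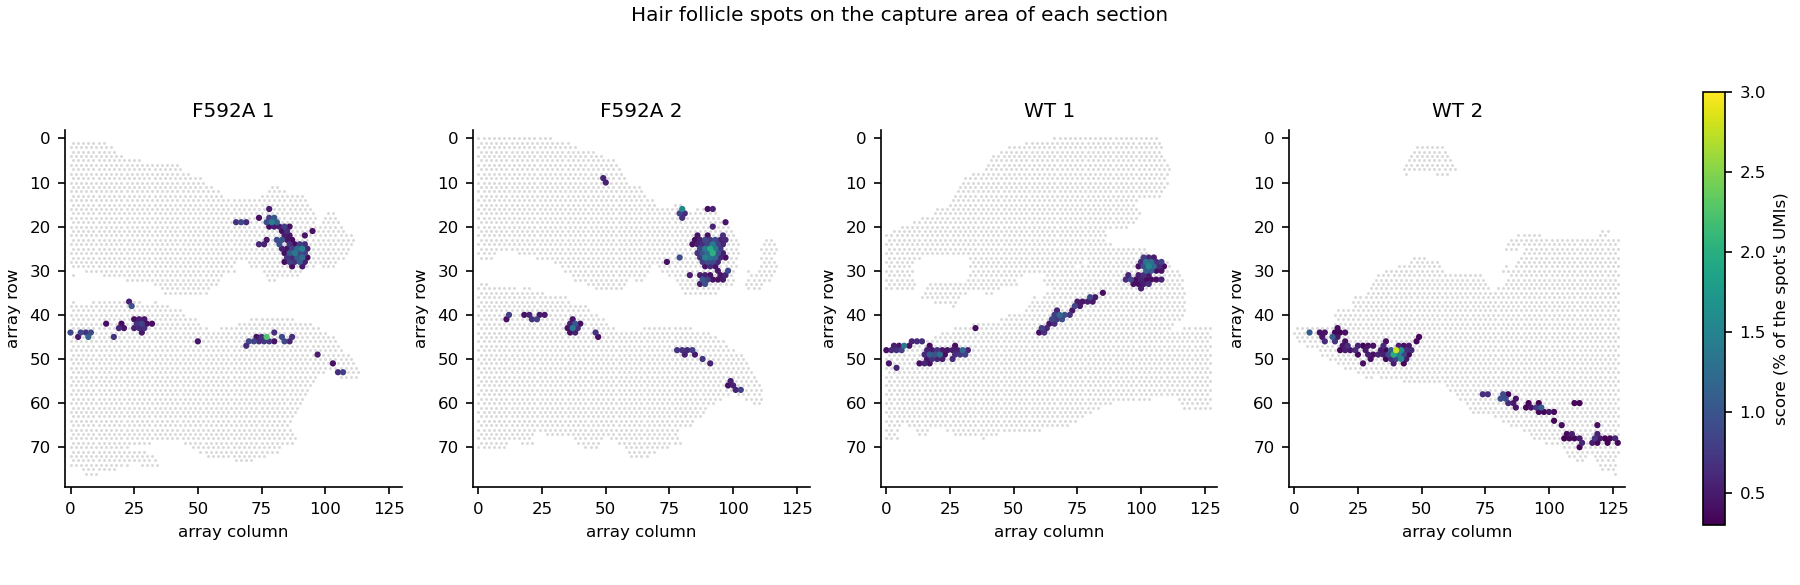
Position of the 100 hair follicle spots of each section on its capture area (array column and array row); colour is the score, in % of the spot's UMIs, and grey points are the other tissue spots. Follicle spots form a few patches and bands in all 4 sections, and the largest patch holds 46 and 55 spots in F592A 1 and F592A 2, against 35 and 42 in WT 1 and WT 2.

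The follicle spots lay together, although the score used no position. A spot on the array has up to 6 adjacent spots. In the F592A sections 89 and 93% of follicle spots had another follicle spot next to them, against 96 and 95% in the WT sections. Of the positions next to a follicle spot, 50 and 53.7% were follicle spots in the F592A sections, against 59.4 and 46.3% in the WT sections, while for the other spots this share was 1.36 to 2.8% over the 4 sections. The spots formed 21 and 17 separate patches in the F592A sections, against 8 and 15 in the WT sections. Each section thus held several follicle-rich areas, as the map of follicle spots shows.

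The 7 genes that chose the spots did not contribute equally. Krt35, a hair keratin of the lower shaft, had 2135 and 2210 CPM in the F592A follicle spots, against 2172 and 1162 CPM in the WT follicle spots, and WT 2 was the low one. Tchh, trichohyalin, which fills the inner root sheath and medulla and is cross-linked there, had 1845 and 1542 CPM in the F592A sections, against 816 and 2134 CPM in the WT sections, so here WT 1 was low and WT 2 high. These values made Tchh the source of 27.9% of the score's UMIs in WT 2 and of 11.5% in WT 1, whereas Krt35 gave 15.2% in WT 2 and 30.7% in WT 1. The inner root sheath keratin Krt71 had 1143 and 1540 CPM in the F592A sections, against 1320 and 1794 CPM in the WT sections. Its partners Krt25 and Krt28 ranged over the 4 sections from 676 to 960 CPM and from 325 to 466 CPM. Gjb2, the gap junction protein connexin 26, ranged from 774 to 888 CPM and was the steadiest of the 7. Dlx3, a homeobox factor of the hair matrix, ranged from 417 to 769 CPM. In all other spots each of the 7 stayed at or under 70.4 CPM in every section.

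Genes that the score did not use were also high in these spots. Of 7 further inner root sheath genes, all 7 had a higher level in the follicle spots of the lowest section than in the other spots of the highest section, and the same held for 12 of 12 hair shaft keratins and 46 of 57 keratin-associated protein genes. Among all 22735 genes with a UMI, 20.8% did so. No member of the fast muscle, tenocyte, dermal fibroblast, endothelial or macrophage lists did. This contrast is the one that chose the spots and is a description.

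Ranked by the fold of the lowest follicle section over the highest section of other spots, with 20 CPM added to both, the first 10 genes outside the score were Gm49425, Sfn, St14, Krt27, Lgals7, Padi3, S100a3, Msx2, Krt73 and Krtap11-1, with folds from 11.2 to 7.03. Sfn encodes stratifin, a 14-3-3 protein of squamous epithelia, and had 1246 and 1302 CPM in the F592A follicle spots, against 1834 and 1180 CPM in the WT follicle spots. St14, the membrane protease matriptase, had 580 and 541 CPM in the F592A sections, against 340 and 334 CPM in the WT sections. Lgals7, a galectin of stratified epithelia, was the most abundant of the 10, with 5061 and 4445 CPM in the F592A sections, against 4687 and 4715 CPM in the WT sections. In the other spots it reached 172 to 496 CPM. S100a3, a calcium-binding protein of the hair cuticle, had 476 and 578 CPM in the F592A sections, against 467 and 260 CPM in the WT sections.

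Detection was also compared at equal depth. With each spot thinned to 1000 UMIs, the inner root sheath keratin Krt27 was seen in 46 and 49% of follicle spots in the F592A sections, against 24 and 31% in the WT sections. Before thinning it was seen in 80 and 89% in the F592A sections, against 76 and 60% in the WT sections. In the 100 spots of each section with the highest share of fast muscle transcripts, which should lack the gene, it was seen in 1 to 2% after thinning and in 6 to 25% before. The median depth of those muscle spots was 5444 and 7536 UMIs in the F592A sections, against 5788 and 10047 in the WT sections. The 100 spots of each section highest for the epidermis list, follicle spots left out, came closer. There Krt27 was seen after thinning in 2 and 7% in the F592A sections, against 17 and 3% in the WT sections. In WT 1 the 24% of follicle spots thus stood beside 17% of epidermis-rich spots.

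**Figure D2:**
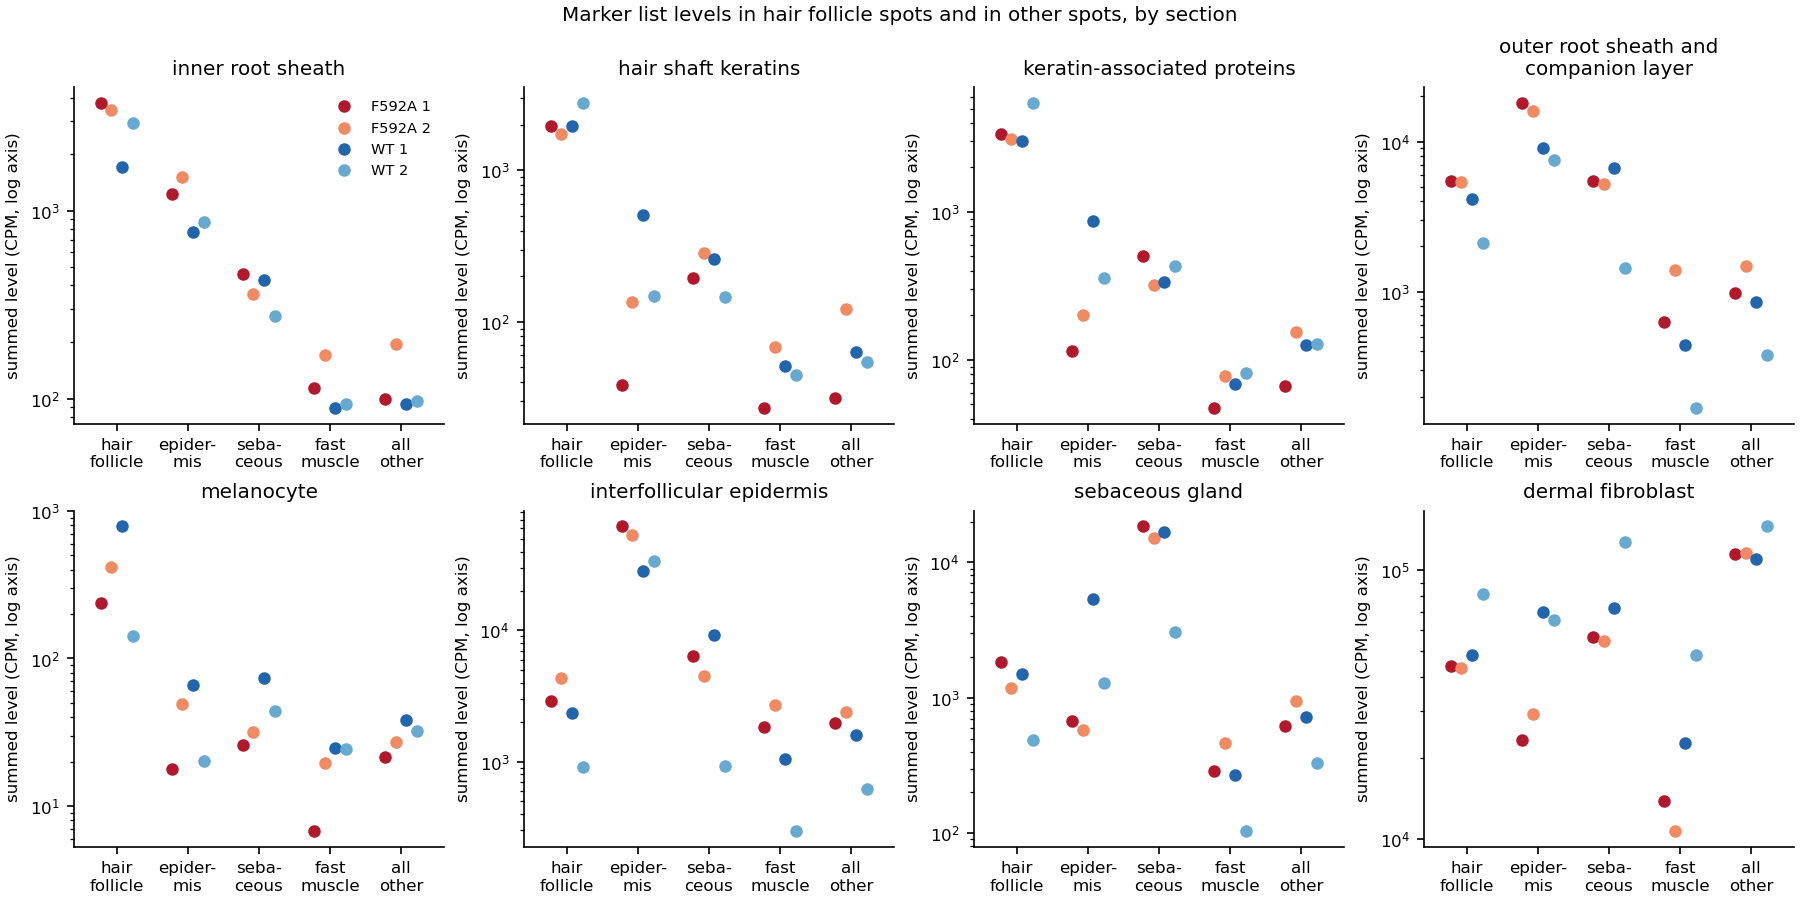
Summed level (CPM, log axis) of 8 marker lists in the hair follicle spots, in the 100 spots of each section highest for the epidermis, sebaceous gland or fast muscle list, and in all other spots; each point is 1 section. Inner root sheath, shaft and melanocyte lists are highest in the follicle spots in every section, whereas the dermal fibroblast list is lower there than in all other spots in every section.

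The inner root sheath list without the genes of the score (Krt26, Krt27, Krt72, Krt73, Gata3, Padi3 and Tgm3) summed to 3766 and 3452 CPM in the F592A follicle spots, against 1702 and 2924 CPM in the WT follicle spots. WT 1 was the lowest section, and both F592A sections lay above both WT sections. The list averaged 3609 ± 222 CPM in F592A and 2313 ± 864 CPM in WT (SD, n = 2 each). An exact two-sided permutation over sections returned p = 0.3333, its lowest possible value with 2 per group. The log2 ratio of the group means was 0.64, and it was 0.30 without WT 1.

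Krt26 showed the widest spread of the sheath keratins. It had 633 and 545 CPM in the F592A follicle spots, against 74.1 and 426 CPM in the WT follicle spots, and WT 1 stood apart from the other 3 sections. Krt72, expressed in the sheath cuticle, had 427 and 320 CPM in the F592A sections, against 155 and 340 CPM in the WT sections, and the groups overlapped. Krt73, its neighbour in the same layer, had 384 and 552 CPM in the F592A sections, against 295 and 251 CPM in the WT sections. Padi3, an enzyme that converts arginines of trichohyalin to citrulline, had 537 and 465 CPM in the F592A sections, against 290 and 612 CPM in the WT sections. Krt26, Krt72 and Padi3 shared the low value in WT 1. Gata3, a transcription factor that the inner root sheath needs, had 864 and 759 CPM in the F592A follicle spots, against 471 and 630 CPM in the WT follicle spots, but it reached 452 to 1224 CPM in the epidermis-rich spots and so does not mark follicle regions alone.

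Shaft keratins were led by Krt86, Krt83 and Krt34. Krt86 had 341 and 524 CPM in the F592A follicle spots, against 314 and 621 CPM in the WT follicle spots. Krt83 had 279 and 271 CPM in the F592A sections, against 473 and 387 CPM in the WT sections. Krt34 had 301 and 211 CPM in the F592A sections, against 180 and 591 CPM in the WT sections. Krt31, an acidic keratin of the cortex, had 147 and 95.9 CPM in the F592A sections, against 157 and 201 CPM in the WT sections. Krt33b, of the same kind, had 109 and 71.0 CPM in the F592A sections, against 113 and 121 CPM in the WT sections. At the low end, Krt82 had at most 5.91 CPM and Krt84 at most 26.6 CPM in any section. The list of 12 summed to 1954 and 1752 CPM in the F592A sections, against 1951 and 2808 CPM in the WT sections, and F592A 1 and WT 1 were nearly equal. That is 1853 ± 143 CPM in F592A and 2380 ± 606 CPM in WT (SD, n = 2 each), and the groups overlapped.

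Of the 57 keratin-associated protein genes, 50 had a UMI in follicle spots and 46 had 1 in the follicle spots of every section. Together they gave 3376 and 3104 CPM in the F592A sections, against 3014 and 5493 CPM in the WT sections, with WT 2 the high one. The log2 ratio of the group means was -0.39, and it was 0.10 without WT 2. Krtap11-1 led, with 324 and 207 CPM in the F592A sections, against 466 and 387 CPM in the WT sections. Krtap8-1 and Krtap7-1, of the glycine- and tyrosine-rich class, ranged from 193 to 275 CPM and from 140 to 289 CPM over the 4 sections. Krtap3-1 had 192 and 232 CPM in the F592A sections, against 209 and 479 CPM in the WT sections. Members of this family can be near-identical copies, and reads may have been split between them or lost, so single Krtap values are uncertain.

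The upstream sequences of 3 shaft keratin genes of chromosome 11 are shown, since the shaft keratins and Krtap genes moved together from spot to spot, and Krt25 and Krt27, inner root sheath keratins of the same chromosome, are set beside them. Each line gives the 250 bases before the gene start in the RefSeq annotation of GRCm38.p6, 5′ to 3′ on the gene's own strand, which is the minus strand for all 5. The coordinates are chr11:100050552-100050801 for Krt31, chr11:100029869-100030118 for Krt33b, chr11:100041555-100041804 for Krt34, chr11:99322952-99323201 for Krt25 and chr11:99351119-99351368 for Krt27. Capitals mark a LEF1 core word, which is CTTTG followed by AA, AT, TA or TT, or a TATA box, TATAAA. Both were searched on both strands, and a match of one may overlap a match of the other.
Krt31: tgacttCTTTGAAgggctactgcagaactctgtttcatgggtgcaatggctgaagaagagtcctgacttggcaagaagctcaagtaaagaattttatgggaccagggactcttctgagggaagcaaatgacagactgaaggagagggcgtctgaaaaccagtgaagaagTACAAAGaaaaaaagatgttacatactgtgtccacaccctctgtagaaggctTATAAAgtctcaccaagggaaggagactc
Krt33b: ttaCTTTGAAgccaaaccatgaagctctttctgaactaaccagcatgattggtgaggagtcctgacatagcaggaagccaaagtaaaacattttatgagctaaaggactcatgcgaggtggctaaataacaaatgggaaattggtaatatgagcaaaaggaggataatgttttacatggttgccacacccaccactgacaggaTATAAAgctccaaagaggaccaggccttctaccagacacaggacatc
Krt34: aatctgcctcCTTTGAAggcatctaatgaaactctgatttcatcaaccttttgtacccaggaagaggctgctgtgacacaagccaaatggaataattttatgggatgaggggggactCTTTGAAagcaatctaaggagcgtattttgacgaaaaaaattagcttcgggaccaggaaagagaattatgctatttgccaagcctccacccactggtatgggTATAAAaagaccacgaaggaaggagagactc
Krt25: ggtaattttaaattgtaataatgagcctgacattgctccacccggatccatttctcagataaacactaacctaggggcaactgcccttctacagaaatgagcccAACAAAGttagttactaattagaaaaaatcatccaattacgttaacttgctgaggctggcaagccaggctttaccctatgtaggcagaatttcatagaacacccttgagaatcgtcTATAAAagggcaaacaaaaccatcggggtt
Krt27: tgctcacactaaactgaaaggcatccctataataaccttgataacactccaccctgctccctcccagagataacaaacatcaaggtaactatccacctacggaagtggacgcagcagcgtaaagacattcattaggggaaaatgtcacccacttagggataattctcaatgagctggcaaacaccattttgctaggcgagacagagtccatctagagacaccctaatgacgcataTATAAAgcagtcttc
A LEF1 core word began 244 bases before the start in Krt31, 247 bases in Krt33b and 240 bases in Krt34, each time on the gene's own strand. Krt31 held a further word 81 bases and Krt34 a further word 133 bases before the start. The sheath keratins differed from each other: Krt25 held a word on the opposite strand 146 bases before the start, and Krt27 held none. A TATA box began 29, 47, 31, 30 and 15 bases before the start of Krt31, Krt33b, Krt34, Krt25 and Krt27. No match overlapped a match of the other motif in these 5 windows. Over the lists, a LEF1 core word was found for 4 of the 7 shaft keratins with a window. It was found for 1 of 7 inner root sheath genes outside the score and for 17 of 51 Krtap genes. Of the 5 genes of the score with a window, 2 held it (Krt25 and Tchh). Over all 27025 genes with a window the share was 16.8%. A TATA box was found for 5 of 7 shaft keratins and 5 of 7 inner root sheath genes. It was found for 3 of 5 genes of the score and 41 of 51 Krtap genes, against 14.3% of all genes with a window. A match of letters is a description and not evidence that a factor binds.

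Lef1 itself, which carries the Wnt signal to hair keratin genes, had 136 and 170 CPM in the F592A follicle spots, against 194 and 56.2 CPM in the WT follicle spots, and 1.40 to 5.52 CPM in the other spots of the 4 sections. WT 2 was the low section, and the groups overlapped. Hoxc13, a homeobox factor that hair keratin genes need, had 578 and 515 CPM in the F592A follicle spots, against 276 and 139 CPM in the WT follicle spots. Both F592A sections lay above both WT sections, with a log2 fold change of 1.32 ± 0.39 (SE) that did not pass (adjusted p = 0.965, edgeR quasi-likelihood test), and it became 0.94 without WT 2 and 1.90 without WT 1. Msx2, a homeobox factor of matrix and shaft, had 335 and 442 CPM in the F592A sections, against 311 and 225 CPM in the WT sections. Foxn1, whose loss gives nude mice, ranged from 69.4 to 105 CPM over the 4 sections.

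Within a section, spots differed in which layer they held. Inner root sheath keratins (Krt25, Krt26, Krt27, Krt28, Krt71, Krt72 and Krt73) and shaft genes (Krt35, the 12 shaft keratins and the Krtap genes) were each summed per spot. Krt25, Krt28, Krt71 and Krt35 are genes of the score that chose the spots, and the shaft sum holds more genes than the sheath sum. Which sum is the larger, and how widely each ranges, therefore depends in part on these choices. Shaft UMIs outnumbered sheath keratin UMIs in 68 and 47 of 100 follicle spots in the F592A sections, against 71 and 69 in the WT sections, and over all 400 spots in 255. Sheath keratin UMIs led in 31 and 51 spots in the F592A sections, against 28 and 27 in the WT sections. F592A 2 was thus the section with the fewest shaft-led spots. The shaft share ran from 0.0142 to 6.56% of a spot's UMIs in F592A 1 and from 0.0215 to 4.92% in F592A 2, against 0.0314 to 6.26% in WT 1 and 0 to 9.77% in WT 2. The sheath keratin share ran up to 1.73 and 1.42% in the F592A sections, against 0.934 and 2.17% in the WT sections, a narrower range than that of the shaft share in every section.

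**Figure D3:**
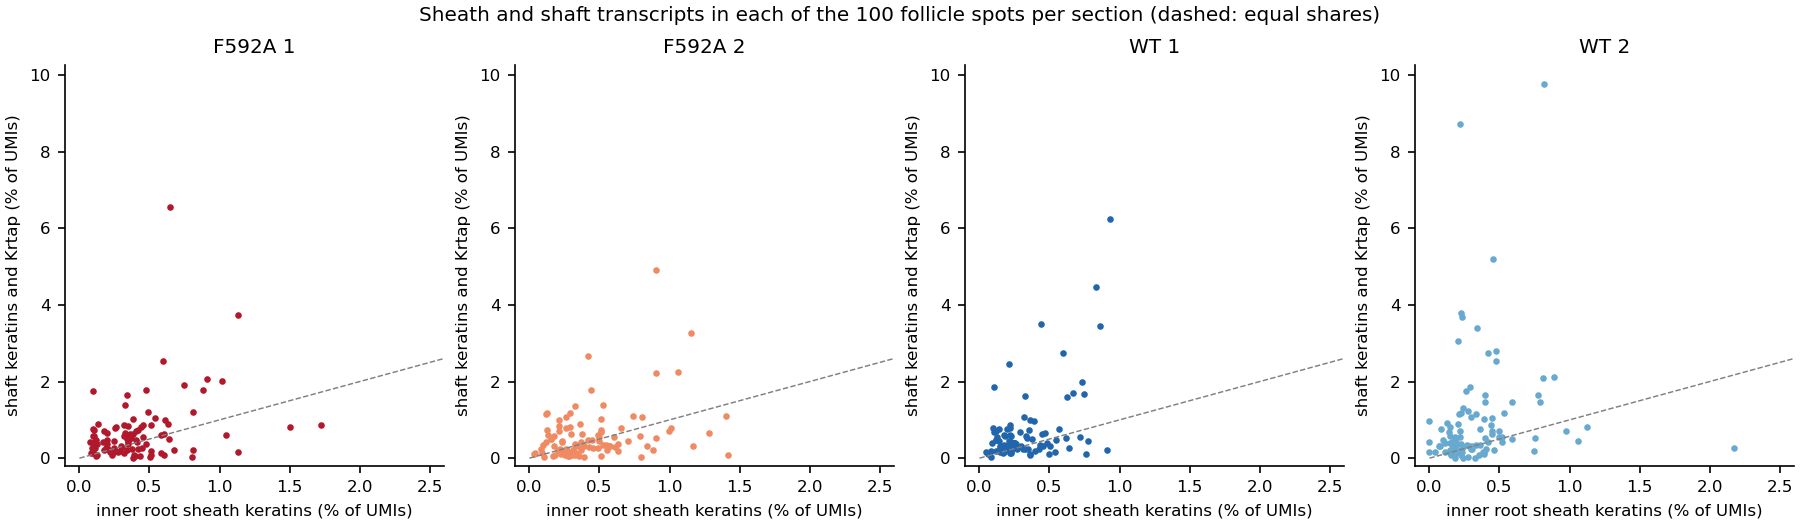
Share of each follicle spot's UMIs from shaft keratins and Krtap genes (vertical axis, %) against its share from inner root sheath keratins (horizontal axis, %), 100 spots per section, with a dashed line where the shares are equal. Most spots lie near the origin, and a few reach shaft shares of several percent, up to 6.56 and 4.92% in F592A 1 and F592A 2, against 6.26 and 9.77% in WT 1 and WT 2.

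Shaft keratins and Krtap genes went together over the 100 follicle spots of a section, with Spearman's rho of 0.77 and 0.74 in the F592A sections, against 0.74 and 0.70 in the WT sections. The inner root sheath list and the shaft keratins were less closely tied, with rho of 0.43 and 0.37 in the F592A sections, against 0.22 and 0.40 in the WT sections. A list of 16 cell cycle genes ran opposite to the shaft keratins, with rho of -0.28 and -0.44 in the F592A sections, against -0.47 and -0.23 in the WT sections. With the inner root sheath list its rho lay between -0.10 and -0.04. These correlations describe spots that share a library and were chosen by a score that holds keratin genes, and they carry no p-value. Some spots held no UMI of a list. Of the 100 follicle spots, 64 held a cell cycle UMI in WT 2 and 74 a shaft keratin UMI in F592A 1, the lowest sections. The part of depth and of such zeros in these values was not tested.

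Dividing and pigment cells were represented in the follicle spots. The cell cycle list summed to 1307 and 1252 CPM in the F592A follicle spots, against 1652 and 639 CPM in the WT follicle spots, and to 346 to 419 CPM in the other spots. Mki67, a protein of dividing cells, had 143 and 143 CPM in the F592A sections, against 245 and 88.7 CPM in the WT sections. The melanocyte list was more uneven, with 237 and 419 CPM in the F592A sections, against 793 and 142 CPM in the WT sections, and the WT sections bracketed the F592A sections. Dct, an enzyme of melanin synthesis, had 64.0 and 81.7 CPM in the F592A sections, against 182 and 41.4 CPM in the WT sections. Tyrp1, an enzyme of the same pathway, had 4.27 and 30.8 CPM in the F592A sections, against 141 and 11.8 CPM in the WT sections. The high values of WT 1 came largely from 1 patch of 35 spots, in which the melanocyte list reached 1778 CPM, the shaft keratins 3986 CPM and the Krtap genes 8135 CPM.

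Patches within a section were not alike. In WT 1 a patch of 23 spots had 461 CPM of shaft keratins, 522 CPM of Krtap genes and 2065 CPM of cell cycle genes, against the 3986, 8135 and 1493 CPM of its patch of 35 spots. In F592A 1 a patch of 4 spots had 9659 CPM of Krtap genes and 362 CPM of cell cycle genes, while its patch of 46 spots had 2708 and 1727 CPM. In F592A 2 a patch of 4 spots had 37803 CPM of interfollicular epidermis genes with 233 CPM of shaft keratins.

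The outer root sheath list and the stem cell list were lower in the follicle spots than in the epidermis-rich spots of every section. The outer root sheath and companion layer list summed to 5496 and 5385 CPM in the F592A follicle spots, against 4113 and 2096 CPM in the WT follicle spots. In the epidermis-rich spots it summed to 18214 and 16072 CPM in the F592A sections, against 9033 and 7547 CPM in the WT sections. The stem cell list ranged over the 4 sections from 908 to 1482 CPM in follicle spots and from 2897 to 6045 CPM in epidermis-rich spots. Krt14, a keratin of basal epithelial cells, had 1282 and 964 CPM in the F592A sections, against 904 and 166 CPM in the WT sections. Krt15, a keratin of basal cells and of the stem cell bulge, had 456 and 532 CPM in the F592A sections, against 391 and 53.2 CPM in the WT sections. WT 2 was the low section for both. Krt75, the keratin of the companion layer, did not share that pattern, with 326 and 385 CPM in the F592A sections, against 238 and 396 CPM in the WT sections. Cd34, a bulge marker that other cells also express, had 147 and 160 CPM in the F592A follicle spots, against 201 and 266 CPM in the WT follicle spots. In the other spots it had 290 and 297 CPM in the F592A sections, against 241 and 293 CPM in the WT sections, so each section was lower in its follicle spots, by little in WT 2. Lgr5, a stem cell receptor, had 29.9 to 36.7 CPM in follicle spots and 19.2 to 26.2 CPM in the other spots. Sox9 had 279 and 157 CPM in the F592A follicle spots, against 125 and 160 CPM in the WT follicle spots, beside 96.3 to 202 CPM in the other spots. Fgf18, a signal of resting follicles, had 0 UMIs in the follicle spots of every section, which allows up to 6.40 and 3.55 CPM in the F592A sections, against 2.85 and 8.87 CPM in the WT sections. These limits are 3 counts of each section's follicle UMIs and cover counting error alone.

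Signals between matrix and papilla were detected at levels that differed by gene. Shh, the ligand that matrix cells send to the papilla, had 12.8 and 26.0 CPM in the F592A follicle spots, against 25.7 and 23.6 CPM in the WT follicle spots, and at most 1.24 CPM in other spots. Corin, a papilla protease, had 2.13 and 1.18 CPM in the F592A sections, against 21.9 and 2.96 CPM in the WT sections, so it was found mainly in WT 1. Bmp4 had 192 and 172 CPM in the F592A sections, against 58.0 and 189 CPM in the WT sections. Wif1, a secreted inhibitor of Wnt ligands, had 179 and 262 CPM in the F592A follicle spots, against 146 and 76.9 CPM in the WT follicle spots. Notum, an enzyme that inactivates Wnt ligands, had 66.1 and 30.8 CPM in the F592A sections, against 10.5 and 5.91 CPM in the WT sections. Its log2 fold change of 2.28 ± 0.56 did not pass (adjusted p = 0.774, edgeR). The 5.91 CPM of WT 2 lay under the 8.87 CPM that 3 counts give in that section.

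**Figure D4:**
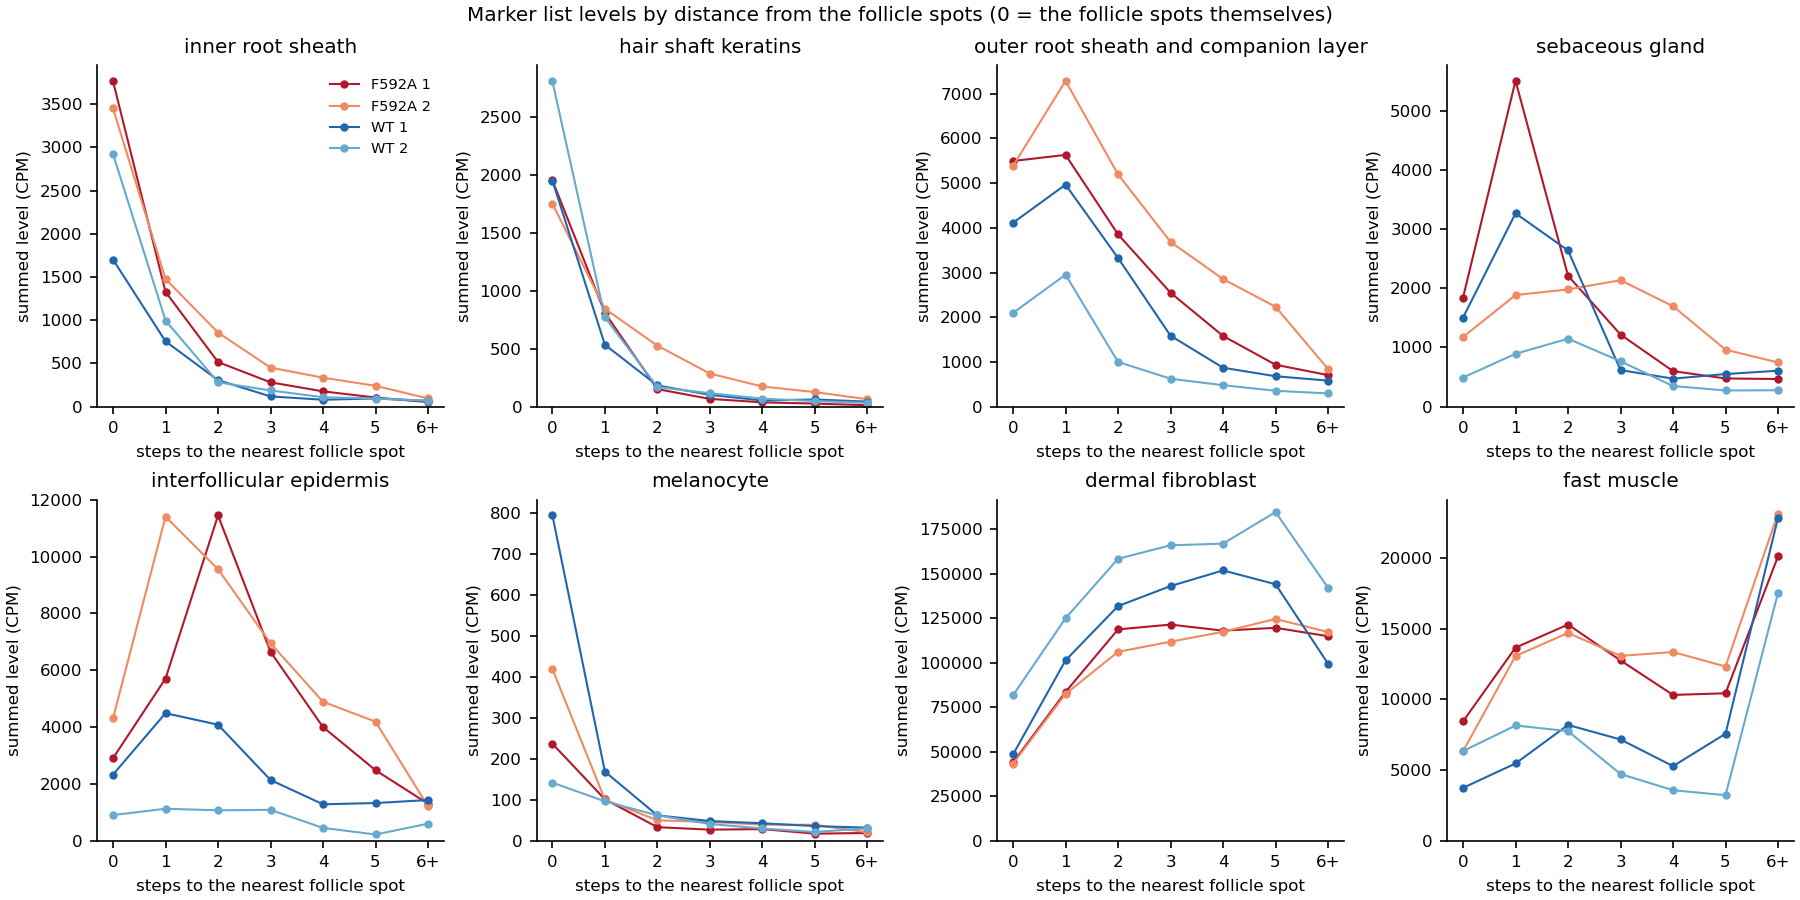
Summed level (CPM) of 8 marker lists by the number of array steps to the nearest hair follicle spot, 0 being the follicle spots themselves and 6+ all spots 6 or more steps away; each line is 1 section. Inner root sheath, shaft and melanocyte lists fall from step 0 to step 2, the outer root sheath list peaks 1 step away in all 4 sections, and the dermal fibroblast list is lowest at step 0.

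Distance from the follicle spots ordered the neighbouring tissue. The inner root sheath list averaged 2961 CPM over the 4 sections in the follicle spots, 1139 CPM at 1 step, 490 CPM at 2 steps and 70.0 CPM at 6 or more. The outer root sheath list instead was highest 1 step away in every section. It had 5633 and 7289 CPM there in the F592A sections, against 4966 and 2953 CPM in the WT sections. In F592A 1 this was close to the 5496 CPM of the follicle spots. The list reached 7547 to 18214 CPM in the epidermis-rich spots and so does not mark the outer root sheath alone. The sebaceous gland list peaked outside the follicle spots in every section: at 1 step in F592A 1 with 5509 CPM and at 3 steps in F592A 2 with 2136 CPM, against 1 step in WT 1 with 3267 CPM and 2 steps in WT 2 with 1147 CPM. The interfollicular epidermis list peaked at 2 steps in F592A 1 with 11446 CPM and at 1 step in F592A 2 with 11402 CPM, against 1 step in WT 1 with 4490 CPM and 1 step in WT 2 with 1128 CPM. The dermal papilla list was highest in the follicle spots themselves, with 452 and 630 CPM in the F592A sections, against 396 and 296 CPM in the WT sections, and reached 147 to 262 CPM 1 step away. Part of the drop from step 0 to step 1 for keratin lists is set by the choice of the highest-scoring spots.

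Dermal fibroblast genes were present in the follicle spots at a lower level than in the other spots of each section. The dermal fibroblast list of 10 genes, collagens among them, summed to 44020 and 43320 CPM in the F592A follicle spots, against 48510 and 81745 CPM in the WT follicle spots, and to 109909 to 146330 CPM in the other spots. WT 2, the section with the shallowest follicle spots, had the highest value, and it had the lowest outer root sheath, epidermis, sebaceous gland and cell cycle levels of the 4 sections. In sections such as these, fewer cells of a type and less RNA per cell cannot be told apart. The fast muscle list summed to 8448 and 6333 CPM in the F592A follicle spots, against 3747 and 6344 CPM in the WT follicle spots. Of the 100 spots with the highest epidermis share, 0 and 4 were follicle spots in the F592A sections, against 2 and 2 in the WT sections, so the follicle spots are not a copy of the epidermis spots.

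The design sets F592A sections with 1NMPP1 against WT Control sections, here within the follicle regions. No gene passed the test. UMIs were summed over the 100 follicle spots of each section and the 2 F592A sums were tested against the 2 WT sums with edgeR's quasi-likelihood test. Of 9436 genes tested, 0 had an adjusted p under 0.05, that is 0% called, DESeq2 called 3, and by edgeR 438, or 4.64%, had an unadjusted p under 0.05. Of these 438 genes, 221 were higher in F592A (2.34% of those tested) and 217 lower (2.3%). In 16.9% of all genes tested both F592A sections lay above both WT sections, and in 17.3% both lay below. On simulated sums of the same size, with changed genes drawn only from better-expressed genes, the test recovered 88% of those changed 4-fold. It recovered 16% of those changed 2-fold, with 2 false calls, so changes of about 2-fold would mostly not be seen. Recovery of changed genes of low level was not tested. Leaving out a section changed the count: 5 genes were called without F592A 1 and 4 without F592A 2, against 430 without WT 1 and 155 without WT 2, and the lone section of a group is then assumed to vary like the other group.

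The 2 smallest adjusted p-values belonged to an epidermal and a muscle gene. Krt77, a keratin of suprabasal skin epithelium, had 322 and 818 CPM in the F592A follicle spots, against 47.5 and 41.4 CPM in the WT follicle spots. Both F592A sections stood well above both WT sections. Its log2 fold change was 3.60 ± 0.48 with an adjusted p of 0.0666 (edgeR), and DESeq2 called it. In all other spots Krt77 had 278 and 362 CPM in the F592A sections, against 28.1 and 39.2 CPM in the WT sections, with a log2 fold change of 3.22 ± 0.23 (adjusted p = 0.0366, edgeR; 0.0863% of 16227 genes were called there), and the difference between the 2 effects was 0.21 ± 0.39 (adjusted p = 1, edgeR). Tnnc1, troponin C of slow muscle, had a log2 fold change of -2.57 ± 0.38 in follicle spots (adjusted p = 0.086, edgeR) and -2.10 ± 0.30 in all other spots (adjusted p = 0.129, edgeR).

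The remaining genes with the smallest p-values were, on the higher side, Lce1m, Ly6g6g, Pdzk1ip1, Fbp1, Efna3, 2310050C09Rik and Spink5, with log2 fold changes from 1.28 to 2.90, and none passed. Lce1m, a late cornified envelope gene, had 68.2 and 170 CPM in the F592A follicle spots, against 13.3 and 20.7 CPM in the WT follicle spots (log2 fold change 2.90 ± 0.49, adjusted p = 0.203, edgeR). Spink5 encodes a protease inhibitor of the outer epidermis. On the lower side were Mcpt4, Tnni1, Tnnt1, Myh7, Ccl8, Sfrp4 and Igfbp5, with log2 fold changes from -2.92 to -1.54, and none passed. Mcpt4, a mast cell chymase, had 6.40 and 13.0 CPM in the F592A follicle spots, against 68.4 and 44.3 CPM in the WT follicle spots. Its log2 fold change was -2.53 ± 0.47 (adjusted p = 0.272, edgeR). The 6.40 CPM of F592A 1 came from 3 counts, so this fold change rests on few UMIs. Tnni1, Tnnt1 and Myh7 are slow muscle proteins.

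Marker lists of these other tissues are given beside those genes, and they contain some of them: Krt77 and Lce1m are on the epidermis list, Tnnc1, Tnni1, Tnnt1 and Myh7 on the slow muscle list and Mcpt4 on the mast cell list. The interfollicular epidermis list summed to 2909 and 4317 CPM in the F592A follicle spots, against 2331 and 908 CPM in the WT follicle spots, and 9 of its 14 tested genes lay above WT in both F592A sections, with a median log2 fold change of 0.91. The slow and regenerating muscle list summed to 335 and 163 CPM in the F592A follicle spots, against 761 and 745 CPM in the WT follicle spots, and in the other spots to 561 and 561 CPM in the F592A sections, against 2651 and 1492 CPM in the WT sections. The mast cell list summed to 72.5 and 72.2 CPM in the F592A follicle spots, against 224 and 145 CPM in the WT follicle spots. Without these genes, a setting added after the data were seen, the epidermis list summed to 2519 and 3329 CPM in the F592A follicle spots, against 2270 and 845 CPM in the WT follicle spots, with 7 of 12 tested genes above WT in both F592A sections. The slow muscle list then summed to 209 and 107 CPM in the F592A follicle spots, against 395 and 319 CPM in the WT follicle spots, with 2 of 3 tested genes below WT in both F592A sections. The mast cell list then summed to 66.1 and 59.2 CPM in the F592A follicle spots, against 156 and 101 CPM in the WT follicle spots, with 1 of 2 tested genes below. The groups still did not overlap in any of the 3 sums, but F592A 1 and WT 1 were close for epidermis. Over all genes tested, 16.9% lay above WT in both F592A sections and 17.3% below. The part of epidermis, muscle and mast cell content in the differences of Krt77, Lce1m, Tnnc1 and Mcpt4 was not tested.

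**Figure D5:**
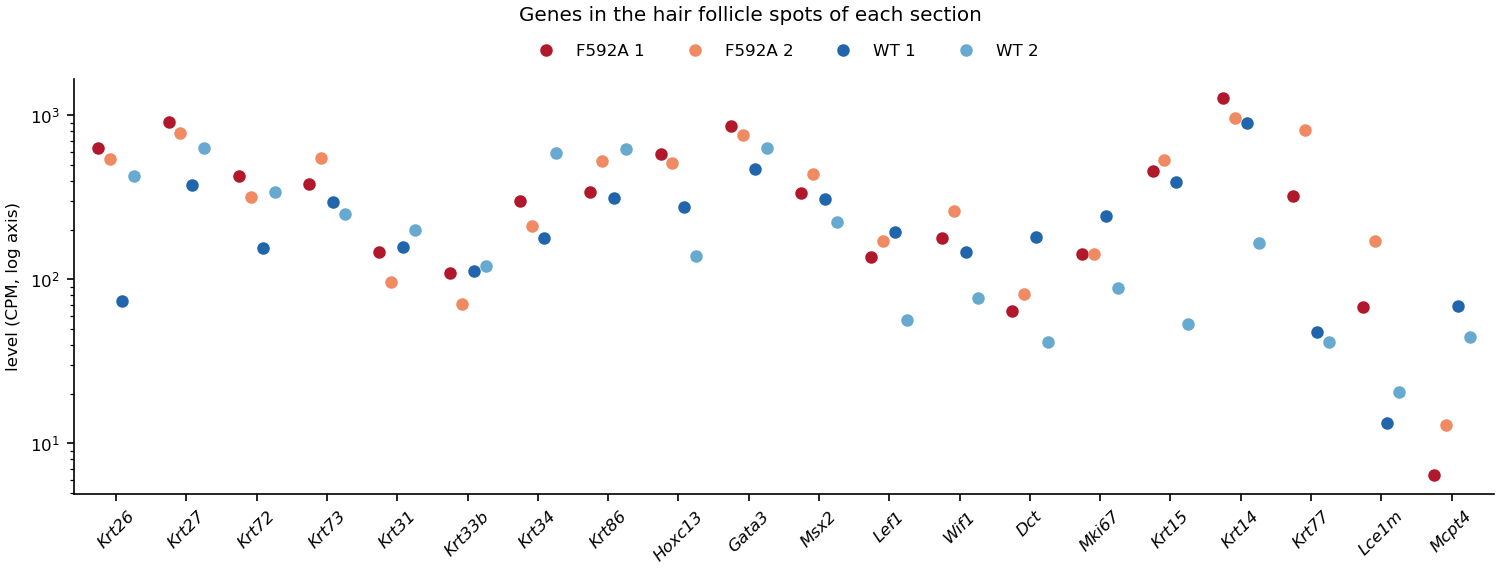
Level (CPM of summed follicle-spot UMIs, log axis) of 20 genes in the hair follicle spots; each point is 1 section, red and orange for F592A, dark and light blue for WT. Krt77 and Lce1m lie higher in both F592A sections than in both WT sections, and Mcpt4 lower, and Krt26, Krt14 and Krt15 each have 1 WT section far below the other 3; none of these genes passed the test.

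No list of follicle genes held a called gene. Over all 9436 genes tested the median log2 fold change was -0.02. In 16.9% of them both F592A sections lay above both WT sections, and in 17.3% both lay below. By unadjusted p under 0.05 (edgeR), 2.34% were higher in F592A and 2.3% lower. The inner root sheath list had 7 tested genes, 4 above WT in both F592A sections and 1 below, and a median log2 fold change of 0.56. Krt26 had a log2 fold change of 1.22 ± 0.61, Krt27 of 0.69 ± 0.41, Krt73 of 0.71 ± 0.35 and Krt72 of 0.56 ± 0.42, each with an adjusted p of 1.00 (edgeR). Of 10 tested shaft keratins, 6 lay below WT in both F592A sections and 0 above, with a median of -0.62, and 3 had an unadjusted p under 0.05: Krt87 (-0.88 ± 0.32), Krt81 (-0.74 ± 0.31) and Krt36 (-0.72 ± 0.31). The Krtap list, with 41 tested genes, had 5 above and 9 below and a median of -0.18. Its Krtap15, with 66.1 and 54.5 CPM in the F592A follicle spots, against 108 and 160 CPM in the WT follicle spots, had a log2 fold change of -1.19 ± 0.34 (adjusted p = 0.965, edgeR).

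The follicle transcription factors had 11 tested genes, 6 above WT in both F592A sections and 1 below, with a median of 0.37, and the outer root sheath and companion layer list had 11 tested, 6 above and 0 below, with a median of 0.72. The dermal papilla list had 8 tested, 3 above and 0 below, with a median of 0.17, and the melanocyte list 8 tested, none without overlap of the groups, with a median of -0.65. The cell cycle list had 16 tested, 2 above and 0 below, with a median of 0.03. Over all genes tested, 16.9% lay above and 17.3% below. Among lists of other tissues with at least 3 tested genes, those with the lowest medians were slow and regenerating muscle at -2.40 (6 of 7 tested genes below WT in both F592A sections), mast cell at -1.59 (2 of 3 below), erythroid at -1.11 (3 of 4 below) and tenocyte at -1.01 (5 of 8 below). Endothelial stood at -0.82 (3 of 7 below), macrophage at -0.52 (5 of 8 below), dermal fibroblast at -0.51 (5 of 9 below) and Schwann and myelin at -0.36 (2 of 4 below). On the other side stood smooth muscle at 0.75 (1 of 3 above), sebaceous gland at 0.66 (1 of 8 above), fast muscle at 0.64 (5 of 10 above) and adipocyte at 0.31 (1 of 5 above).

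Whether a group difference was particular to the follicle spots was tested with the group-by-region term on 8 sums, the follicle spots and all other spots of each section, with the section as a block. Of 15691 genes, 6 passed (0.0382%), and 616, or 3.93%, had an unadjusted p under 0.05. On simulated sums, with changed genes again drawn only from better-expressed genes, this term recovered 43% of those changed 4-fold. It recovered 1% of those changed 2-fold, with 0 false calls. The simulation drew both regions of a section independently and with the same spread per gene. These recovery figures may therefore not hold for the real sums, in which both regions share a section. The follicle effect was the higher one for 5 of the 6 (0.0319%) and the lower one for 1 (0.00637%). The term compares 2 effects, so a gene can pass through a group difference in the other spots alone. Of the 6 genes, Wif1 is on the dermal papilla list. In the follicle spots its 179 and 262 CPM in the F592A sections stood against 146 and 76.9 CPM in the WT sections, and in the other spots its 4.67 and 8.44 CPM in the F592A sections stood against 11.6 and 9.43 CPM in the WT sections. The follicle effect exceeded the effect in other spots by 1.67 ± 0.34 on the log2 scale (adjusted p = 0.00341, edgeR), while within the follicle spots alone the log2 fold change of 0.88 ± 0.37 did not pass (adjusted p = 1.00, edgeR). The call was lost without F592A 1 or without F592A 2 (adjusted p = 1 each, edgeR) and kept without either WT section. With the epidermis-rich spots in place of all other spots Wif1 had an adjusted p of 0.0962 (edgeR).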

How the data were processed

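Gene expression was measured on 10x Visium arrays in 4 fresh frozen sections. The deposited files hold unnormalized UMI counts of 32285 genes in each spot, written by Space Ranger 1.3.0 per the file headers, with genome build mm10 and Seurat 3 named in the submitters' processing notes. The gene annotation is not given in the sources used here. The counts cover spots under tissue, and array rows and columns gave the positions.

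Counts were summed over the follicle spots of a section, which was the replicate. CPM are counts per 1000000 UMIs of these sums, without TMM factors. Fold changes come from edgeR 4.0.16 on R 4.3.3 (TMM, filterByExpr, Benjamini-Hochberg adjustment over all genes tested, threshold 0.05); each SE was obtained by dividing the size of a log2 fold change by the root of its F. Alternatives were DESeq2 1.42.0, RLE scaling, other filters, other numbers of spots, other UMI minimums and leaving out sections. Spots were grouped and positions analysed in Python 3.11.15 with numpy 2.4.6 and scipy 1.17.1, and figures drawn with matplotlib 3.10.9. The fits were tested on simulated counts.

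The follicle spots and the 35 gene lists were chosen with earlier results of these data known. Genes named in the group comparison were the 8 per direction with the smallest p and a mean log2 CPM of at least 5, up to 4 per list, and a fixed set of 51. Krt74 and Krt85 were not analysed here, and 1 of the 6 genes called for the difference between regions is not reported here.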

Additional observations from a re-analysis of the deposited data

Results flagged for a closer look

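In 5 genes given here the difference between F592A and WT was not the same in the hair follicle spots and in all other spots, by edgeR's test of the group-by-region term, and each is given here as the follicle effect minus the effect in other spots on the log2 scale. Mbp, the myelin basic protein, had 2.53 ± 0.48 (adjusted p = 0.00125). Tnnt2, a troponin of cardiac and regenerating muscle, had 3.40 ± 0.69 (adjusted p = 0.00341). It had 2 and 12 UMIs in the F592A follicle spots, against 18 and 3 UMIs in the WT follicle spots, too few to be tested there, and entered through the other spots, with 165 and 69 UMIs in the F592A sections, against 2274 and 341 UMIs in the WT sections. Gpc3, a glypican, had 1.57 ± 0.36 (adjusted p = 0.0288). Its log2 fold change was 0.19 in the follicle spots and -1.35 in the other spots, and neither passed. Wif1 had 1.67 ± 0.34 (adjusted p = 0.00341). Sfrp4, a secreted Wnt modulator, was the 1 gene with a lower effect in follicle spots, at -2.01 ± 0.41 (adjusted p = 0.00357).

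For Mbp the groups differed mainly in the other spots. It had 23.5 and 23.7 CPM in the F592A follicle spots, against 17.1 and 29.6 CPM in the WT follicle spots, while in the other spots it had 25.0 and 23.4 CPM in the F592A sections, against 172 and 62.1 CPM in the WT sections. The Schwann and myelin list summed in the other spots to 368 and 363 CPM in the F592A sections, against 1650 and 707 CPM in the WT sections. Sfrp4 had TMM-scaled levels of 15.3 and 24.8 CPM in the F592A follicle spots, against 57.5 and 287 CPM in the WT follicle spots. Each of these 5 calls was lost when some section was left out: leaving out F592A 1 kept Tnnt2, leaving out F592A 2 kept none of the 5, leaving out WT 1 kept Wif1, Gpc3 and Sfrp4, and leaving out WT 2 kept Mbp, Wif1, Gpc3 and Tnnt2.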

How the results depend on the processing

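The count of 0 genes called in follicle spots stayed 0 with RLE scaling, with 50 spots, with a minimum of 2000 UMIs, with a score of at least 1% and without mitochondrial, haemoglobin and muscle genes. It was 30 with no filter on low counts, 2 with 200 spots, 1 with a minimum of 500 UMIs and 3 with DESeq2 (Krt77, Lce1m and Tnnc1), and 4 to 430 when 1 section was left out. With the section number as a replicate block it was 14. The numbers do not pair the sections by any label, and the deviations of same-numbered sections from their group means had r = -0.19 over 6933 genes, so a crossed pairing was added after the data were seen and gave 38. The 6 genes called for the difference between regions became 10 with RLE scaling, 11 with 200 spots and 1 to 83 without a section. With epidermis-rich spots in place of all other spots 8 genes were called and 0 of the 6 were among them. The log2 ratio of the summed shaft keratins, -0.36, was -1.44 with a score of at least 1%, where 9 to 15 spots remained per section. The causes were not tested. The log2 ratio was 0.30 to 1.08 for inner root sheath, -0.60 to -0.07 for shaft keratins and -0.76 to 0.10 for Krtap genes when 1 section was left out. For the 33 named genes checked, no log2 fold change in follicle spots changed sign under any setting run. Gpc3 was not among these genes, so the sign of its fold change in follicle spots was not checked. The share of follicle spots with a follicle neighbour, 93.25% on average, lay between 90.5 and 94.7%. Depth limits WT 2 most, with 338272 UMIs in its follicle spots.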

Other observations

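Genes of cell contact signalling were present in the follicle spots beyond the layers described above. Notch1, a receptor of differentiating epithelium, had 473 and 469 CPM in the F592A follicle spots, against 382 and 263 CPM in the WT follicle spots, and 31.7 to 50.1 CPM in the other spots. Jag1, its ligand, had 324 and 367 CPM in the F592A follicle spots, against 363 and 266 CPM in the WT follicle spots, and 46.1 to 57.0 CPM in the other spots. The Notch list as a whole summed to 1698 and 1740 CPM in the F592A follicle spots, against 1469 and 1262 CPM in the WT follicle spots. None of its 8 tested genes was called.

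Immediate early genes, transcription factors induced rapidly by many stimuli, summed to 1555 and 1590 CPM in the F592A follicle spots, against 1096 and 1209 CPM in the WT follicle spots, and in the other spots to 1165 and 1212 CPM in the F592A sections, against 958 and 1013 CPM in the WT sections. Egr1, a transcription factor of that group, had 230 and 246 CPM in the F592A follicle spots, against 125 and 142 CPM in the WT follicle spots. Of the 11 tested genes of the list, 7 had a positive and 4 a negative log2 fold change, and none was called. Epcam, a cell adhesion molecule, had 119 and 129 CPM in the F592A follicle spots, against 82.7 and 59.1 CPM in the WT follicle spots, and 4.43 to 14.5 CPM in the other spots.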
